A study of Mus musculus with 10 samples.

Results

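The heat shock chaperone genes examined here are Hspa1a, Hspa1b, Hspb1, Hsph1, Dnajb1, Hsp90aa1, Hspa8, Bag3, Cryab and Hspb8. These 10 genes were taken by symbol from the 2 deposited tables, which together name 55856 genes, and all 10 were present in both tables. They were measured by mRNA sequencing in OP9, a mouse bone marrow stromal line labelled as a mesenchymal stem cell, which can be driven to form adipocytes. The 4 groups were Drosha KO with 3 libraries and empty vector (EV) with 3 libraries in batch 2, and Dicer1 KO with 2 libraries and EV with 2 libraries in batch 1. All 10 libraries came from cells held for 10 days from confluence with rosiglitazone at 1 µM, a drug that activates PPARγ, and the labels call the EV genotype WT. The labels do not say how each knockout was made, whether a knockout line is 1 clone, or whether replicates were separate cultures, so p-values measure no more than how far these libraries spread, and that spread may be technical. Each knockout was set against the EV of its own batch, since no batch holds both knockouts.

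Heat shock chaperones bind unfolded or aggregating proteins. Hspa1a and Hspa1b encode the stress-inducible HSP70, which works with J-domain proteins such as Dnajb1 and with nucleotide exchange factors such as Hsph1 and Bag3, while Hspa8 encodes the constitutive HSP70. Hsp90aa1 encodes the inducible form of HSP90, and Hspb1, Cryab and Hspb8 encode small heat shock proteins, which hold unfolded proteins without using ATP. Heat shock factor 1 (Hsf1) drives many of these genes by binding heat shock elements, which are inverted repeats of a short unit. Drosha and Dicer1, the targeted genes, encode the nucleases that cut primary microRNA transcripts and the hairpins released from them.

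Promoters are shown first, because heat shock elements are the feature by which these genes are usually grouped. RefSeq promoter windows (GRCm38.p6, 250 bases before to 50 after the start site) were found for 7 of the 10 genes, and 4 are printed. Hspa1a, Hspa1b and Hspb1 had the lowest log2 fold changes of the 10 genes in Dicer1 KO, and Hsph1 held the one match of 3 units. Capitals mark a heat shock element of 2 units (GAANNTTC or TTCNNGAA) or of 3 units (GAANNTTCNNGAA or TTCNNGAANNTTC), searched on both strands. A 3-unit match also holds overlapping 2-unit matches. Hspa1a lies at chr17:34972107-34972406 and Hspa1b at chr17:34959189-34959488, both on the minus strand. The Hspb1 window is chr5:135887669-135887968 on the plus strand, and the Hsph1 window is chr5:149636266-149636565 on the minus strand.
Hspa1a: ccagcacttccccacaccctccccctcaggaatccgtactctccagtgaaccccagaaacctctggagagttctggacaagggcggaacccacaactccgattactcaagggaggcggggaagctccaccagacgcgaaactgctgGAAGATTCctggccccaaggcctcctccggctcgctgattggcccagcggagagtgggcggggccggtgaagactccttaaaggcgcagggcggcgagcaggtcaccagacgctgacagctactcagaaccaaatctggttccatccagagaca
Hspa1b: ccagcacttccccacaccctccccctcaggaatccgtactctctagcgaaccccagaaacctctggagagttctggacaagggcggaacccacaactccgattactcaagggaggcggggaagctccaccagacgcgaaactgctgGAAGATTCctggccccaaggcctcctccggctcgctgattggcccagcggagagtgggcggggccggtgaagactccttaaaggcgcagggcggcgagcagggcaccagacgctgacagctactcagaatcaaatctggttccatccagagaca
Hspb1: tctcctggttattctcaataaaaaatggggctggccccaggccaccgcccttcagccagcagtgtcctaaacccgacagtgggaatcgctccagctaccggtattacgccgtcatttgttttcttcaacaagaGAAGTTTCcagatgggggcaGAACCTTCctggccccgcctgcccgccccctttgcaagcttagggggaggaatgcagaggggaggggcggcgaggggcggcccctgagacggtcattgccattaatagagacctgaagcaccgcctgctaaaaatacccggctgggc
Hsph1: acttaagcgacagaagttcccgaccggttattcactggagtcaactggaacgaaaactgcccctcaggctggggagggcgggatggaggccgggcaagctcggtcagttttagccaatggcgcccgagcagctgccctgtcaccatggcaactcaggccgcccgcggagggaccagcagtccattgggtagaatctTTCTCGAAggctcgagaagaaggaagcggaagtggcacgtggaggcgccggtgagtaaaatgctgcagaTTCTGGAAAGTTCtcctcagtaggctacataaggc

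The Hspa1a and Hspa1b windows were identical at 296 of 300 positions (98.7%), and each held 1 match of 2 units at positions -104 to -97 from the start site. Hspb1 held 2 such matches, at -117 to -110 and at -97 to -90. Hsph1 alone held a match of 3 units, at 16 to 28 in the window printed, beside a match of 2 units at -54 to -47. Bag3 had a 2-unit match at 43 to 50 and Hspb8 at 3 to 10. No match was found in the windows of Dnajb1. A 2-unit match was thus present in 6 of these 7 genes, where 15.1% of 32851 mouse promoter windows of the same length hold one, and a 3-unit match is held by 0.603% of windows. The windows belong to 27025 genes, some with more than 1 window, so a count of genes and a share of windows are unlike measures. The near-identical Hspa1a and Hspa1b are counted separately. These are matches to letters only.

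**Figure D1:**
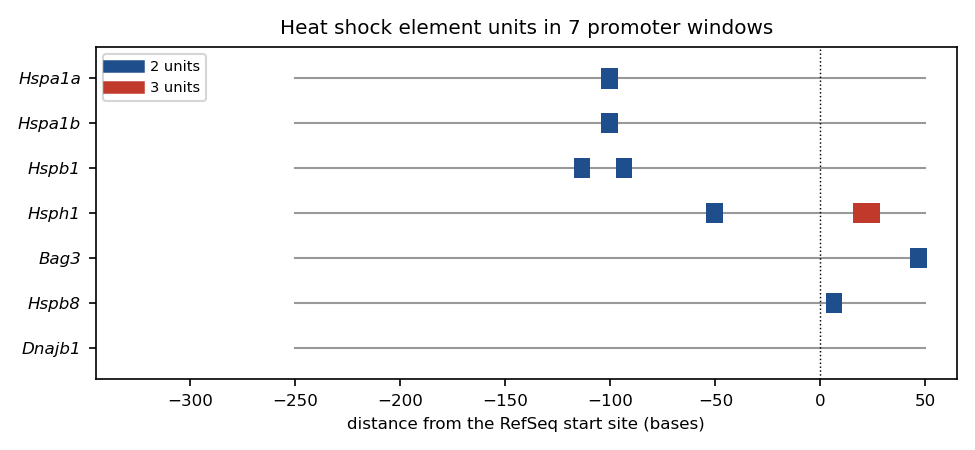
Matches to heat shock element units in the promoter windows of 7 genes, drawn along the distance from the RefSeq start site in bases (dotted line at 0). Blue boxes are matches of 2 units and red boxes matches of 3 units. The matches of Hspa1a, Hspa1b and Hspb1 lie before the start site, those of Bag3 and Hspb8 after it, and Dnajb1 has none.

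The same likeness reaches into the transcripts. In a GENCODE annotation of GRCm38, 63.8% of the 2937 stretches of 31 bases in Hspa1a transcripts also occur in Hspa1b, and 67.6% of the 2769 in Hspa1b occur in Hspa1a. Neither shares any with Hspa8. The split of reads between Hspa1a and Hspa1b is therefore uncertain, and their sum is given beside each of them. Set against Hspa1l, 12.1% of the Hspa1a stretches and 11.1% of those of Hspa1b also occur there, and Hspa1l was not added to the sum.

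Levels are given in TPM, in which estimated reads are divided by transcript length and scaled to 1e+06 per library. Depth cannot be read from such values, so no counting interval is given. Changes are log2 differences of TPM + 1 with their standard error (SE), from limma. A change was called when its p, adjusted by Benjamini-Hochberg over all genes tested, lay under 0.05. Adding 1 understates the change of genes at low TPM. In Drosha KO, the level of Drosha was 14.8, 13.7 and 15.6 TPM, against 38.9, 39.6 and 38.6 TPM in the batch 2 EV (log2 fold change -1.35 ± 0.05, adjusted p = 9.74e-06). In Dicer1 KO, the level of Dicer1 was 19.3 and 14.9 TPM, against 23.8 and 17.3 TPM in the batch 1 EV. The Dicer1 groups overlapped and the gene was not called (adjusted p = 0.407), so its mRNA does not check that label. The cell type was checked on marker genes. The stromal markers summed to between 3233 and 14245 TPM in every library, and the endothelial markers to at most 4.33 TPM. Vim, at 2356 to 3111 TPM, made up most of the stromal sum in batch 1, and Thy1 was at most at 1.00 TPM in any library. Pdgfrb was at 7.02 and 7.73 TPM in Dicer1 KO, 44.2 and 28.5 TPM in the batch 1 EV and 184 to 204 TPM in batch 2. Cxcl12 was at 111 to 326 TPM in batch 1 and 4890 to 5389 TPM in batch 2. Of 6 macrophage markers, at least 4 lay under 1 TPM in all libraries of each group. The exceptions were Cd14, at 6.17 to 19.1 TPM in all 10 libraries and called higher in Drosha KO (0.40 ± 0.11, adjusted p = 0.0186), though not after median-ratio scaling (adjusted p = 0.0788), and Lyz2, at 17.7 to 20.8 TPM in batch 2 and at most 0.64 TPM in batch 1. Their part in the chaperone results was not tested.

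In the Dicer1 comparison, the inducible HSP70 genes, Dnajb1, Hspb1 and Cryab were many-fold lower in the knockout, while the other 5 genes were not called. Summed over the 10 genes, these transcripts made up 0.483% and 0.482% of the Dicer1 KO libraries, against 0.64% and 1.27% of the batch 1 EV libraries. In the Drosha comparison, the changes were small, and the sum was 0.196%, 0.202% and 0.21% in Drosha KO, against 0.185%, 0.185% and 0.184% in the batch 2 EV. Both libraries of the batch 1 EV lay above every batch 2 library for all 10 genes, and above every other library for 7 of them. The Dicer1 KO libraries also lay above all 6 batch 2 libraries for 9 of the 10 genes, Cryab being the exception. These levels are set side by side across tables, where batch and knockout cannot be told apart, and were not tested. The share of all genes with such orders was not computed, so these counts do not set the 10 genes apart from others.

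**Figure D2:**
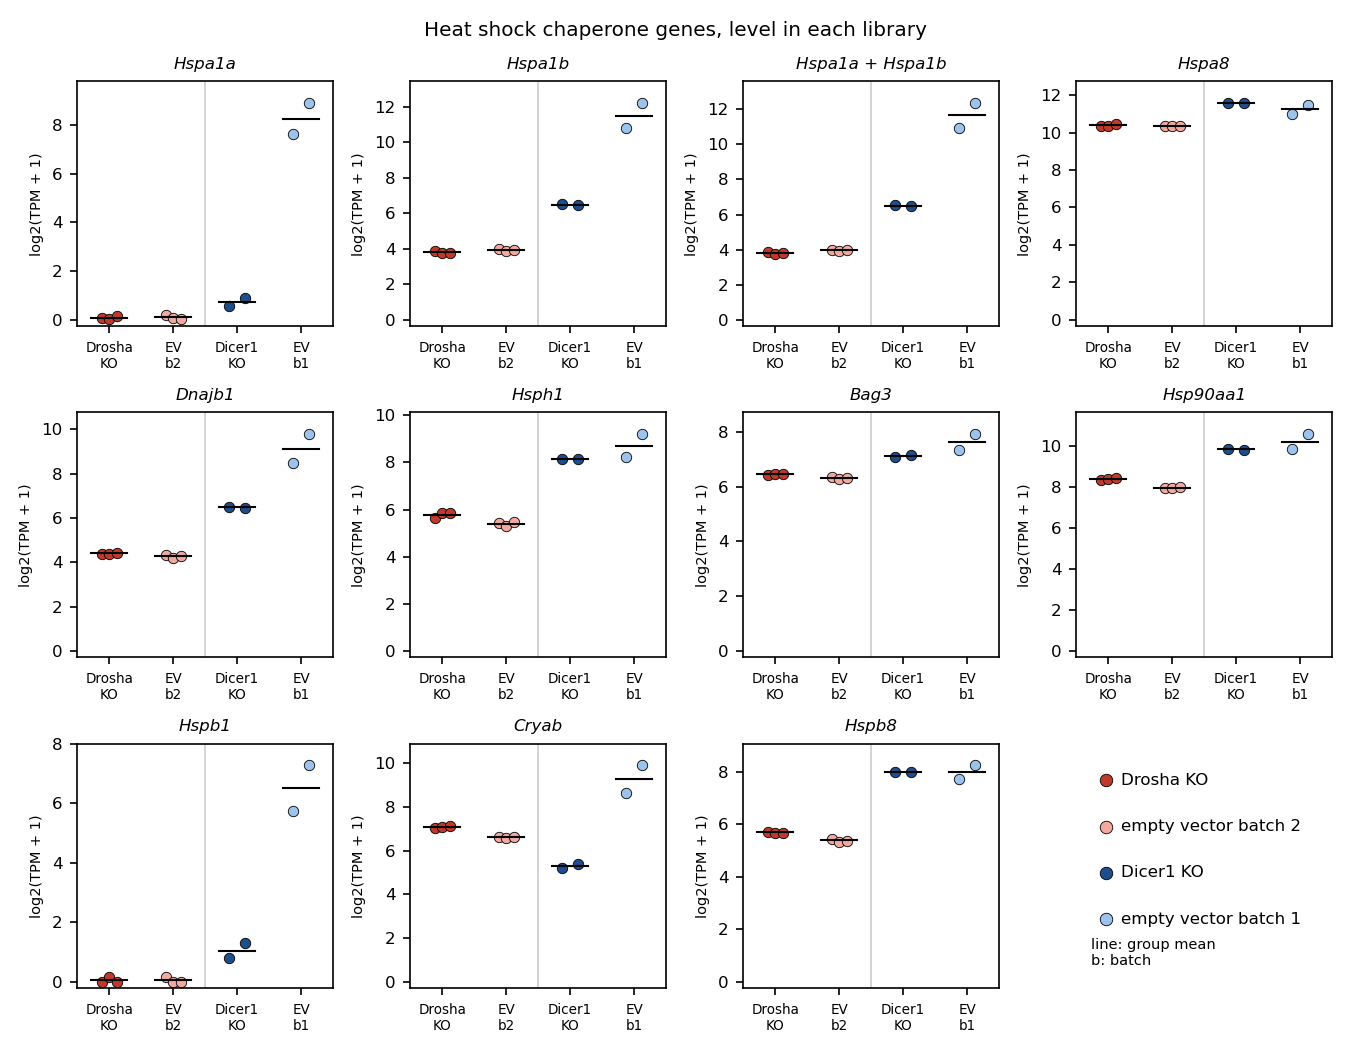
Level of each gene, and of Hspa1a and Hspa1b summed, as log2(TPM + 1) in each library. Points are libraries and lines are group means. Groups run Drosha KO, batch 2 EV, Dicer1 KO and batch 1 EV, with a grey line between the batches. The batch 1 EV libraries are the highest for Hspa1a, Hspa1b, Hspb1, Dnajb1 and Cryab by a wide margin, and their 2 points lie apart from each other.

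Among the HSP70 genes, Hspa1b showed the highest level of an inducible member. Hspa1b was at 90.8 and 86.8 TPM in Dicer1 KO, against 1793 and 4746 TPM in the batch 1 EV. Hspa1a was at 0.477 and 0.844 TPM in Dicer1 KO, against 194 and 472 TPM in the batch 1 EV. Every Dicer1 KO library thus lay below every batch 1 EV library for both genes, and the EV libraries themselves were far apart. The summed Hspa1a and Hspa1b reached 91.2 and 87.7 TPM in Dicer1 KO, against 1986 and 5218 TPM in the batch 1 EV, which is 21.8-fold to 59.5-fold lower between single libraries. The log2 fold change of Hspa1a was -7.52 ± 0.42. Hspa1a reached the minimum of 1 TPM for testing only through the EV libraries, so its fall is a description. The log2 fold change of the sum was -5.15 ± 0.43 (adjusted p = 0.00414) and that of Hspa1b -5.02 ± 0.43 (adjusted p = 0.00438). Without Dicer1 KO replicate 1 or replicate 2 the sum was no longer called (adjusted p = 0.0867 and 0.0821). In those 2 limma fits 0 of all 12239 genes were called, though 2925 and 3129 had an unadjusted p under 0.05, the lone knockout library being assumed to vary like the EV.

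In batch 2 the same genes were low. Hspa1b was at 13.7, 12.5 and 12.8 TPM in Drosha KO, against 14.9, 13.96 and 14.5 TPM in the batch 2 EV. The groups did not overlap, but the sum with Hspa1a was not called (log2 fold change -0.14 ± 0.06, adjusted p = 0.0889). After median-ratio scaling, which sets the median gene to no change, the sum was called lower (-0.28, adjusted p = 0.00812). Hspa1a stayed between 0.03 and 0.149 TPM in all 6 libraries of batch 2, under the minimum of 1 TPM, and was not tested there. Its share of the summed TPM was 0.522% and 0.963% in Dicer1 KO, against 9.74% and 9.05% in the batch 1 EV, and it was under 1% in all 6 batch 2 libraries.

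Hspa8, the constitutive HSP70 gene, ran differently. It was at 3015 and 3041 TPM in Dicer1 KO, against 2025 and 2865 TPM in the batch 1 EV. The Dicer1 KO libraries were the higher ones without overlap, but the change was not called (0.33 ± 0.18, adjusted p = 0.204). With 1 EV library left out, limma takes a gene's spread from the 2 Dicer1 KO libraries alone, so only effect sizes are given here. The change of Hspa8 became 0.08 without EV replicate 1 and 0.58 without EV replicate 2. In batch 2 it was at 1287, 1324 and 1387 TPM in Drosha KO, against 1306, 1318 and 1293 TPM in the batch 2 EV. These groups overlapped, and the log2 fold change was 0.03 ± 0.03 (adjusted p = 0.526), though it was called lower after median-ratio scaling (-0.12, adjusted p = 0.0265). The ratio of summed Hspa1a and Hspa1b to Hspa8 within a library was 0.0107, 0.00948 and 0.0093 in Drosha KO, against 0.0115, 0.0106 and 0.0112 in the batch 2 EV. It was 0.0303 and 0.0288 in Dicer1 KO, against 0.981 and 1.82 in the batch 1 EV. In the batch 1 EV the inducible transcripts thus came close to the constitutive one in replicate 1 and exceeded it in replicate 2.

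**Figure D3:**
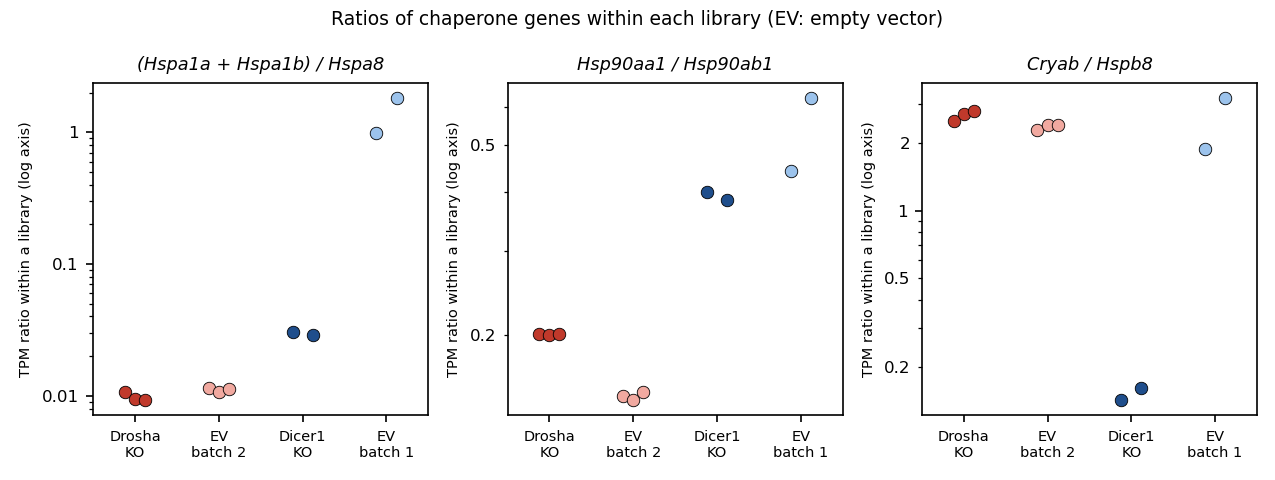
Ratios of TPM within each library on log axes, for summed Hspa1a and Hspa1b over Hspa8, Hsp90aa1 over Hsp90ab1, and Cryab over Hspb8. Points are libraries, grouped as Drosha KO, batch 2 EV, Dicer1 KO and batch 1 EV. The first ratio is 0.981 and 1.82 in the batch 1 EV and at most 0.0303 in the other libraries, and the last is lowest in Dicer1 KO, at 0.143 and 0.161.

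Of the HSP70 cochaperones, Dnajb1, the J-domain partner that delivers substrates to HSP70, fell in Dicer1 KO. It was at 89.7 and 87.0 TPM in Dicer1 KO, against 355 and 884 TPM in the batch 1 EV (-2.65 ± 0.40, adjusted p = 0.0106). The groups did not overlap, and the call was lost when no filter on low TPM was used (adjusted p = 0.0524). In batch 2, Dnajb1 was at 20.0, 19.9 and 20.4 TPM in Drosha KO, against 19.2, 17.3 and 18.2 TPM in the batch 2 EV. Its groups were apart there too, and the change was not called (0.13 ± 0.05, adjusted p = 0.0725). The ratio of summed Hspa1a and Hspa1b to Dnajb1 was 1.02 and 1.01 in Dicer1 KO, against 5.59 and 5.9 in the batch 1 EV, and it lay between 0.63 and 0.809 in batch 2.

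Hsph1, an HSP110 protein that exchanges the nucleotide of HSP70, rose in Drosha KO. It was at 48.9, 56.4 and 56.1 TPM in Drosha KO, against 41.7, 38.8 and 43.2 TPM in the batch 2 EV (0.37 ± 0.07, adjusted p = 0.00369). The groups did not overlap. In batch 1 it was at 283 TPM in both Dicer1 KO libraries, against 295 and 587 TPM in the batch 1 EV (-0.56 ± 0.31, adjusted p = 0.221). The lower EV library was thus close to the knockout. The change of Hsph1 was -1.05 without it (EV replicate 1) and -0.06 without EV replicate 2. Bag3, which links HSP70 to small heat shock proteins and to autophagy, was at 85.7, 87.2 and 87.7 TPM in Drosha KO, against 79.7, 76.1 and 78.7 TPM in the batch 2 EV (0.15 ± 0.03, adjusted p = 0.0089). This rise was about the size of the median change of all genes (0.13), and the call was lost after median-ratio scaling (0.01, adjusted p = 0.906) and after quantile normalization (-0.02, adjusted p = 0.717). Bag3 was at 133 and 142 TPM in Dicer1 KO, against 161 and 240 TPM in the batch 1 EV (-0.51 ± 0.19, adjusted p = 0.0958). That change became -0.80 without EV replicate 1 and -0.23 without EV replicate 2.

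Hsp90aa1, the inducible HSP90, rose in Drosha KO. It was at 323, 337 and 344 TPM in Drosha KO, against 248, 248 and 254 TPM in the batch 2 EV (0.42 ± 0.03, adjusted p = 9.11e-05), and the groups lay apart. In batch 1 it was at 931 and 887 TPM in Dicer1 KO, against 927 and 1525 TPM in the batch 1 EV, and the groups overlapped (-0.39 ± 0.23, adjusted p = 0.251). The change was -0.75 without EV replicate 1 and -0.03 without EV replicate 2. Against Hsp90ab1, which encodes the constitutive HSP90, Hsp90aa1 stood at a ratio of 0.201, 0.2 and 0.201 in Drosha KO, against 0.149, 0.147 and 0.152 in the batch 2 EV. The ratio was 0.398 and 0.383 in Dicer1 KO, against 0.442 and 0.627 in the batch 1 EV. The batches did not overlap in this ratio.

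The small heat shock proteins differed among themselves. Cryab, the gene of alpha B-crystallin, was at 36.3 and 40.9 TPM in Dicer1 KO, against 394 and 966 TPM in the batch 1 EV (-3.97 ± 0.40, adjusted p = 0.00559). It was at 129, 135 and 140 TPM in Drosha KO, against 98.0, 94.7 and 97.1 TPM in the batch 2 EV (0.47 ± 0.04, adjusted p = 1.06e-04). Cryab therefore fell in Dicer1 KO and rose in Drosha KO, with no overlap of groups in either batch, and it was the one gene of the 10 with its lowest level in Dicer1 KO. Hspb1, the gene of HSP27 (HSP25 in mouse), was at 0.728 and 1.46 TPM in Dicer1 KO, against 52.0 and 154 TPM in the batch 1 EV (-5.46 ± 0.51). Hspb1 reached the minimum for testing through the EV libraries, so its fall is a description. In batch 2 it was listed at 0 in 4 of 6 libraries and at most at 0.113 TPM, so it was not tested there. Hspb8, a partner of Bag3, was at 51.4, 50.3 and 50.4 TPM in Drosha KO, against 42.7, 39.2 and 40.4 TPM in the batch 2 EV (0.31 ± 0.04, adjusted p = 0.00114), with no overlap. It was at 254 TPM in both Dicer1 KO libraries, against 208 and 304 TPM in the batch 1 EV, so the knockout lay between the EV libraries (0.01 ± 0.18, adjusted p = 0.959). The change was -0.26 without EV replicate 1 and 0.29 without EV replicate 2, so its direction hung on which EV library was kept. The ratio of Cryab to Hspb8 within a library was 2.51, 2.69 and 2.77 in Drosha KO, against 2.29, 2.41 and 2.41 in the batch 2 EV. It was 0.143 and 0.161 in Dicer1 KO, against 1.89 and 3.18 in the batch 1 EV.

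**Figure D4:**
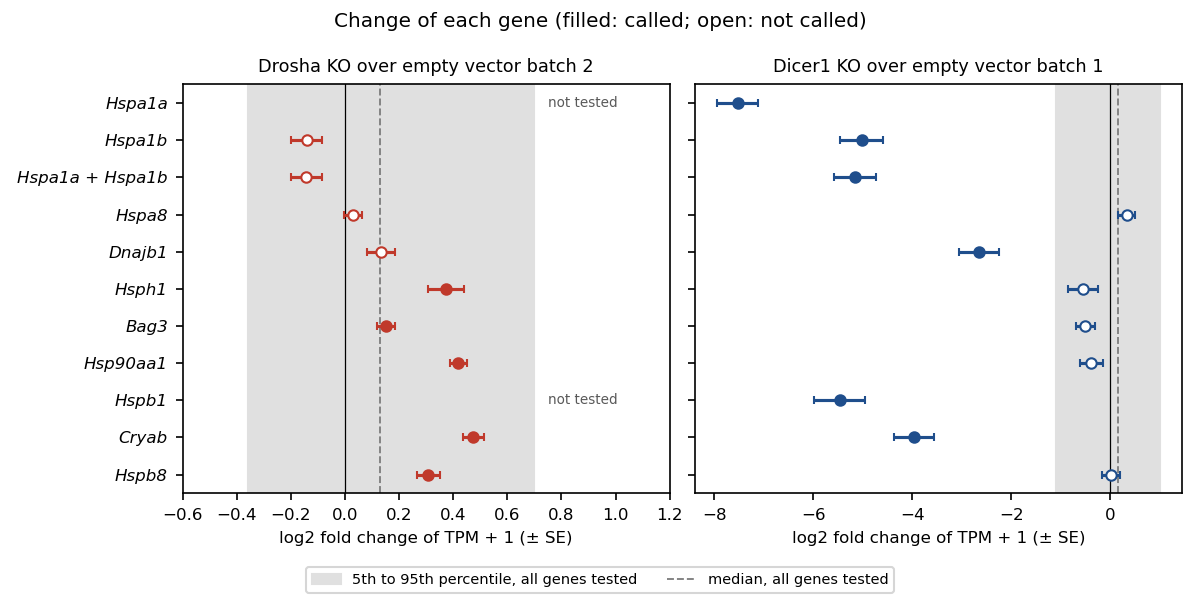
Log2 fold change of TPM + 1 with its SE for each gene in Drosha KO over the batch 2 EV (left) and in Dicer1 KO over the batch 1 EV (right), on axes of different width. Filled points were called at an adjusted p under 0.05, the dashed line is the median of all genes tested, and the grey band runs from the 5th to the 95th percentile of all genes. All Drosha KO changes lie within the band, while Hspa1a, Hspa1b, Hspb1, Cryab and Dnajb1 lie far below it in Dicer1 KO.

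Counted over the genes tested, 5 of 8 rose in Drosha KO (Cryab, Hsp90aa1, Hsph1, Hspb8 and Bag3), none fell and 3 were not called. At an unadjusted p under 0.05, limma gave 6 higher and 1 lower (Hspa1b). Among all 12742 genes tested, 35.3% were called higher and 7.42% lower, so a call as higher was common. After median-ratio scaling the members split into 4 higher and 2 lower (Hspa1b and Hspa8), and all genes into 18.03% higher and 16.3% lower. The rises of Hsph1 (0.23), Hsp90aa1 (0.27) and Hspb8 (0.17) were then over 1.5 times smaller but still called, and with quantile normalization Hsph1 was at 0.20 and Hspb8 at 0.14. The groups lay apart, with Drosha KO higher, for 6 of the 8, against 44.0% of all genes. The median change of the 8 was 0.23, beside 0.13 for all genes. In Dicer1 KO, 5 of 10 fell and none rose (6 and 0 at an unadjusted p under 0.05 in limma), where 9.60% of all 12239 genes were called lower and 21.5% higher. The groups lay apart, with Dicer1 KO lower, for 7 of the 10, against 24.2% of all genes. The median of the 10 was -1.60, beside 0.15 for all genes. Hspa1a and Hspb1 reached the 1 TPM minimum in batch 1 through the EV libraries, so their falls and these counts are descriptions. Leaving out 1 EV library leaves a spread from the 2 Dicer1 KO libraries alone, so calls from those fits were left out of these counts.

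The difference between the knockouts was fitted over all 10 libraries, as the Drosha KO change minus the Dicer1 KO change. For the sum of Hspa1a and Hspa1b it was 5.01 ± 0.41 (adjusted p = 3.01e-05), for Hspa1b 4.88 ± 0.42, for Cryab 4.44 ± 0.39 and for Dnajb1 2.79 ± 0.39. It was smaller for Hsph1 (0.93 ± 0.31, adjusted p = 0.0386), Hsp90aa1 (0.81 ± 0.22, adjusted p = 0.0173) and Bag3 (0.66 ± 0.18, adjusted p = 0.0175). Hspa8 (-0.30, adjusted p = 0.171) and Hspb8 (0.29, adjusted p = 0.217) were not called. These 5 values moved with each batch 1 EV library left out, and effect sizes alone are given because 1 library then remained in that group. Without EV replicate 1 they were 1.43 for Hsph1, 1.17 for Hsp90aa1, 0.95 for Bag3, -0.05 for Hspa8 and 0.57 for Hspb8. Without EV replicate 2 they were 0.44 for Hsph1, 0.45 for Hsp90aa1, 0.38 for Bag3, -0.55 for Hspa8 and 0.02 for Hspb8. Hspa8 was called after quantile normalization (-0.46, adjusted p = 0.0245). The call of Hsph1 was lost in 13 of 20 alternatives, among them median-ratio scaling (adjusted p = 0.0538) and leaving out any single library of Drosha KO, the batch 2 EV or Dicer1 KO. That of Hsp90aa1 was lost without Dicer1 KO replicate 2 (adjusted p = 0.0571) and that of Bag3 without Dicer1 KO replicate 1 (adjusted p = 0.0644). So 6 of the 8 genes tested differed in the positive direction, where 17.4% of 11140 genes did and 18.1% did in the negative one. This fit gives each gene 1 spread for both batches. With a spread of its own for each table, an alternative chosen after seeing the data, 3 of the 8 were called (Hspa1b, Cryab and Dnajb1), where 11.9% of all genes were called in that direction. The adjusted p was then 0.0848 for Hsph1, 0.0586 for Hsp90aa1 and 0.059 for Bag3.

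The 2 batch 1 EV libraries differed from each other in these genes. Replicate 2 was above replicate 1 for all 10, by a ratio of TPM + 1 between 1.42 (Hspa8) and 2.93 (Hspb1), while the median gene had a ratio of 0.935. The ratio was 2.65 for Hspa1b, 2.48 for Dnajb1 and 2.45 for Cryab. It reached 1.5 for 7 of the 10, against 3.98% of all 12239 genes tested. In the Dicer1 KO, Drosha KO and batch 2 EV groups, the highest library exceeded the lowest by that ratio for none of the 10. Of all genes tested in batch 1, 6.28% were that far apart in Dicer1 KO, in either direction. The share was not computed for the batch 2 groups, and the 3.98% counts replicate 2 above replicate 1 only. The genes lower in Dicer1 KO were thus also those that varied most between the EV libraries, and they were lower in the knockout than in either EV library.

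**Figure D5:**
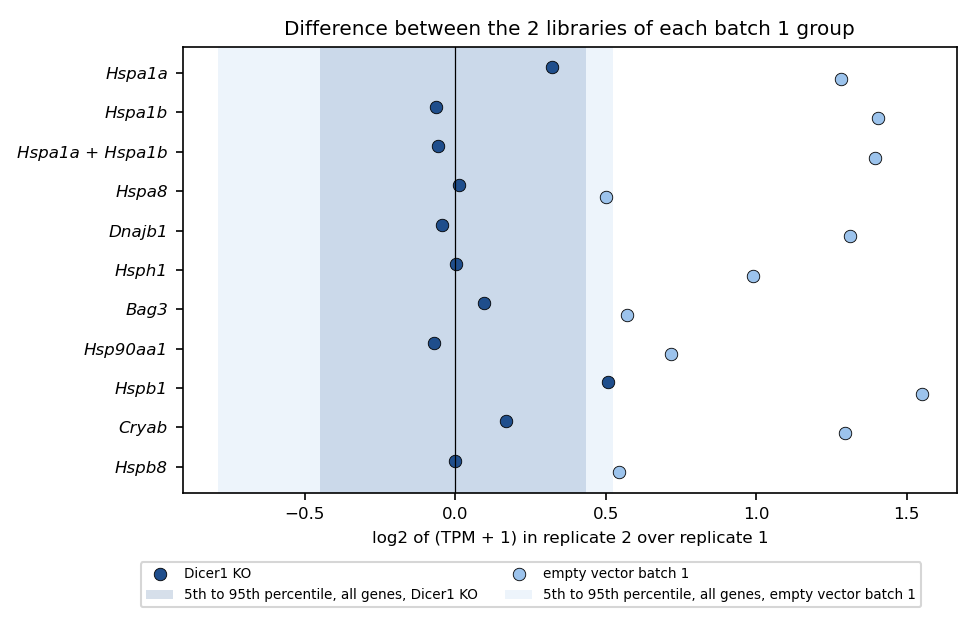
Log2 ratio of TPM + 1 in replicate 2 over replicate 1 for each gene, in Dicer1 KO (dark) and in the batch 1 EV (light). Shaded bands run from the 5th to the 95th percentile of all genes in each group. The batch 1 EV points lie to the right of 0 for every gene, and the Dicer1 KO points lie near 0 except for Hspa1a and Hspb1, which are at 1.46 TPM or less in those libraries.

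Other stress genes moved with the EV replicate difference. A ratio of at least 1.5 was found for 6 of 11 oxidative and metal stress genes, among them Hmox1 (2.08), Mt1 (1.77) and Mt2 (1.83), and for 6 of 22 immediate early genes, among them Atf3 (2.42), Fos (2.03) and Egr1 (2.00). It was found for 4 of 14 other J-domain genes, which were Dnaja1 (1.74), Dnaja4 (2.43), Dnajb4 (1.51) and Dnajb5 (1.60). One gene each of the endoplasmic reticulum and mitochondrial lists reached it (Dnajb9, 1.66, and Hscb, 1.52). None did in the lists of heat shock regulators, other HSP70 genes, HSP90 genes, other small heat shock proteins, TRiC and prefoldin, or in the adipocyte, stromal, macrophage and muscle marker lists, and no endothelial marker was tested. In the other direction, Plin1 (0.546), Cxcl12 (0.587), Adipoq (0.597), Bag4 (0.621) and Pdgfrb (0.652) were over 1.5-fold lower in replicate 2, so adipocyte and stromal markers differed between these libraries too. The part of these genes in the results above was not tested.

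The regulators and relatives of the 10 genes were described by lists. Apart from the cell type markers, list medians in Drosha KO ran between 0.04 (TRiC and prefoldin) and 0.36 (immediate early genes), beside 0.13 for all genes. In Dicer1 KO they ran between -0.58 (other small heat shock proteins) and 0.69 (oxidative and metal stress genes), beside 0.15 for all genes. Of 5 heat shock factors and regulators, Hikeshi, which carries HSP70 into the nucleus, fell in Drosha KO (-0.16 ± 0.05, adjusted p = 0.0273), and Hsf2 rose in Dicer1 KO (0.63 ± 0.16, adjusted p = 0.0372). Hsf1 itself was at 49.9 and 49.9 TPM in Dicer1 KO, against 49.4 and 46.6 TPM in the batch 1 EV, and was not called in either comparison. Of the other HSP70 family and cochaperone genes tested, 6 of 14 rose and 1 fell in Drosha KO, near the shares of all genes (35.3% and 7.42%), among them Hspa14 (0.41 ± 0.04), Hspa13 (0.30 ± 0.06), Stub1 (0.28 ± 0.05) and St13 (0.28 ± 0.04). In Dicer1 KO, 2 of 15 rose (Hspa4l, 0.64 ± 0.16, and Hspa13, 0.45 ± 0.10) and none fell, beside 21.5% and 9.60% of all genes. After median-ratio scaling the calls were 2 higher and 2 lower in Drosha KO, without Hspa13 and Stub1, and 0 higher and 1 lower in Dicer1 KO. Of all genes, 18.03% were then called higher and 16.35% lower in Drosha KO, and 12.93% and 12.91% in Dicer1 KO. Hsf2 was not called after this scaling in limma (adjusted p = 0.059).

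Dnaja4, a J-domain gene, moved in the directions of Cryab. It was at 7.998, 7.48 and 7.84 TPM in Drosha KO, against 3.40, 4.90 and 4.74 TPM in the batch 2 EV (0.73 ± 0.12, adjusted p = 0.00279). In batch 1 it was at 22.4 and 23.8 TPM in Dicer1 KO, against 169 and 412 TPM in the batch 1 EV (-3.46 ± 0.40, adjusted p = 0.00625). It was the one J-domain gene of 14 that fell in Dicer1 KO, where 4 rose, among them Dnajb12 (0.93 ± 0.10), Dnajc5 (0.75 ± 0.11) and Dnajb6 (0.59 ± 0.09). Among all genes, 9.60% fell and 21.5% rose there. In Drosha KO, 10 of the 14 rose and none fell, beside 35.3% of all genes higher, Dnajb5 (0.53 ± 0.12), Dnajb12 (0.49 ± 0.04) and Dnajb14 (0.47 ± 0.08) among them, with a list median of 0.21. After median-ratio scaling the J-domain calls were 6 higher and 2 lower in Drosha KO and 3 higher and 1 lower in Dicer1 KO. Of all genes, 18.03% were then called higher and 16.35% lower in Drosha KO, and 12.93% and 12.91% in Dicer1 KO.

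Genes of the HSP90 list split in Drosha KO, where 4 of 13 rose and 2 fell, beside 35.3% and 7.42% of all genes. Fkbp5, a glucocorticoid-responsive HSP90 cochaperone, reached 25.7 ± 2.33 TPM in Drosha KO, against 8.64 ± 0.76 TPM in the batch 2 EV (SD, n = 3 each), with a log2 fold change of 1.47 ± 0.08. Cacybp (0.36 ± 0.04) and Stip1 (0.19 ± 0.03), which joins HSP70 to HSP90, also rose, and Fkbp4 fell (-0.19 ± 0.03). In Dicer1 KO, Ptges3, the p23 cochaperone, was the 1 gene of 13 called (0.32 ± 0.08). Among other small heat shock proteins, Hspb6 was at 20.6 and 20.0 TPM in Dicer1 KO, against 51.7 and 47.4 TPM in the batch 1 EV (-1.24 ± 0.11, adjusted p = 0.00442). The other gene tested with it there was not called, and neither of the 2 tested in Drosha KO was (Hspb6 at 40.4 ± 2.96 TPM in Drosha KO and 36.0 ± 2.25 TPM in the batch 2 EV, Hspb2 at 1.25 ± 0.56 TPM in Drosha KO and 1.201 ± 0.86 TPM in the batch 2 EV; SD, n = 3 each). Of 14 TRiC and prefoldin genes, which fold actin and tubulin, 2 rose (Vbp1, 1.01 ± 0.05, and Tcp1, 0.16 ± 0.03) and 1 fell (Cct4, -0.18 ± 0.05) in Drosha KO, and 1 rose in Dicer1 KO (Pfdn2, 0.54 ± 0.13). Among all genes, 35.3% rose and 7.42% fell in Drosha KO, and 21.5% rose and 9.60% fell in Dicer1 KO. The scaling mattered for these lists. Of all genes, median-ratio scaling left 18.03% called higher and 16.35% lower in Drosha KO, and 12.93% and 12.91% in Dicer1 KO. After median-ratio scaling the HSP90 list split into 2 higher and 5 lower in Drosha KO and 0 higher and 2 lower in Dicer1 KO, and the TRiC and prefoldin list into 1 higher and 6 lower in Drosha KO and 0 higher and 1 lower in Dicer1 KO, with Stip1, Tcp1, Ptges3 and Pfdn2 no longer called.

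Chaperones of other compartments were mostly higher, or not called, in both knockouts. Of 16 endoplasmic reticulum chaperone genes, 14 rose in Drosha KO and 11 in Dicer1 KO, and none fell in either, beside 35.3% of all genes higher in Drosha KO and 21.5% in Dicer1 KO. The list medians were 0.29 in Drosha KO and 0.42 in Dicer1 KO. Dnajb9 (0.48 ± 0.08 and 0.96 ± 0.24) was named in both, with Dnajc3 (0.49 ± 0.05), Dnajb11 (0.48 ± 0.03) and Creld2 (0.41 ± 0.04) in Drosha KO and Hyou1 (0.75 ± 0.15), Sdf2l1 (0.74 ± 0.16) and Manf (0.68 ± 0.11) in Dicer1 KO. Of 12 mitochondrial genes, 3 rose and 1 fell in Drosha KO (35.3% and 7.42% of all genes), and 4 rose and 1 fell in Dicer1 KO (21.5% and 9.60% of all genes). The one that fell was Hspe1, the mitochondrial HSP10, in both, at 231 ± 10.2 TPM in Drosha KO and 292 ± 10.6 TPM in the batch 2 EV (SD, n = 3 each), and at 307 and 353 TPM in Dicer1 KO, against 540 and 758 TPM in the batch 1 EV. Hspa9, the mitochondrial HSP70, rose in both (0.18 ± 0.03 in Drosha KO and 0.59 ± 0.09 in Dicer1 KO), as did Grpel1 (0.16 ± 0.04) and Clpp (0.13 ± 0.04) in Drosha KO and Grpel2 (0.77 ± 0.15) and Lonp1 (0.45 ± 0.11) in Dicer1 KO. After median-ratio scaling, 8 of the 16 endoplasmic reticulum genes were called higher in Drosha KO and 4 in Dicer1 KO, without Dnajb9 (adjusted p = 0.0914), and none lower, beside 18.03% and 12.9% of all genes higher. The mitochondrial list then had 0 higher and 3 lower in Drosha KO and 1 higher and 1 lower in Dicer1 KO. Over all genes, 16.35% were then called lower in Drosha KO and 12.91% in Dicer1 KO. Of the mitochondrial rises named, Grpel2 alone was still called.

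Immediate early genes, which respond to signals within minutes, were called in both comparisons. In Drosha KO, 13 of 21 rose and 2 fell (35.3% and 7.42% of all genes), led by Fos (1.77 ± 0.12), Nr4a1 (1.14 ± 0.09), Ier2 (1.05 ± 0.07) and Junb (1.05 ± 0.07). In Dicer1 KO, 7 of 22 fell and 8 rose (9.60% and 21.5% of all genes), and the largest changes were falls of Fos (-2.79 ± 0.35), Egr1 (-2.29 ± 0.31), Fosb (-2.29 ± 0.25) and Atf3 (-2.09 ± 0.40). Fos was at 2.64 and 2.23 TPM in Dicer1 KO, against 15.6 and 32.7 TPM in the batch 1 EV. Of the oxidative and metal stress genes, 6 of 10 rose and 1 fell in Drosha KO (35.3% and 7.42% of all genes), with Gclc (0.88 ± 0.06), Gclm (0.39 ± 0.07), Hmox1 (0.38 ± 0.03) and Txnrd1 (0.36 ± 0.04) named. In Dicer1 KO, 5 of 11 rose and none fell (21.5% and 9.60% of all genes), led by the cystine transporter gene Slc7a11 (2.57 ± 0.14), Gclm (1.15 ± 0.22), Gclc (0.995 ± 0.12) and Sqstm1 (0.84 ± 0.20). Median-ratio scaling left 18.03% of all genes called higher and 16.35% lower in Drosha KO, and 12.93% and 12.91% in Dicer1 KO. The immediate early genes then split into 11 higher and 2 lower in Drosha KO and 5 higher and 8 lower in Dicer1 KO. The oxidative and metal stress genes split into 4 higher and 1 lower in Drosha KO and 3 higher and 0 lower in Dicer1 KO, without Sqstm1. The part of these genes in the chaperone results was not tested.

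Cell type markers also moved in the Dicer1 comparison. Of 8 adipocyte markers, 7 fell in Dicer1 KO, beside 9.60% of all genes called lower. Their sum lay between 354 and 386 TPM in Dicer1 KO, against 1016 and 1176 TPM in the batch 1 EV. Single markers fell further than the sum, with Adipoq at 0.148 and 0.164 TPM in Dicer1 KO, against 61.6 and 36.4 TPM in the batch 1 EV (-5.39 ± 0.29). Plin1 changed by -5.01 ± 0.32. Adipoq, Plin1 and Cfd lay under 1 TPM in both Dicer1 KO libraries. These markers reached the minimum for testing only through the EV libraries, so their falls and the count of 7 are descriptions. In Drosha KO, 6 of 8 fell and 1 rose, beside 7.42% and 35.3% of all genes. Among the falls were Cfd (-1.30 ± 0.05), Adipoq (-1.08 ± 0.05), Cidec (-1.05 ± 0.06) and Plin1 (-0.99 ± 0.07). The sum hid them, at 1903 to 1954 TPM in Drosha KO, against 1928 to 1940 TPM in the batch 2 EV. Fabp4 was its largest part, at 1171, 1135 and 1151 TPM in Drosha KO, against 894, 900 and 894 TPM in the batch 2 EV. Of the 6 stromal markers tested, 5 fell in Dicer1 KO and 2 in Drosha KO (Col1a1 and Col1a2, neither of which was called after quantile normalization). The muscle markers, which matter because Cryab and the small heat shock proteins are abundant in muscle, summed to 26.5 and 30.9 TPM in Dicer1 KO, against 8.98 and 8.56 TPM in the batch 1 EV, and Acta1 made up 23.5 and 26.7 TPM in Dicer1 KO. Their part in the chaperone results was not tested, and in such bulk libraries fewer cells of a type and less RNA per cell cannot be told apart.

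The genes with a pattern most like that of summed Hspa1a and Hspa1b were sought over the 10 libraries among 9974 genes, by the root mean square distance of log2(TPM + 1) centred within each table. Among the 10 genes, Hspa1b, which makes up most of the sum, had a distance of 0.0419, Cryab 0.452 and Dnajb1 0.80, while the others tested in both tables lay at 1.47 or more. A gene with the same level in every library of a table would lie at 1.66, and Hspa8 lay at 1.75. Outside the 10 genes, the nearest were Clu (0.212), which encodes the extracellular chaperone clusterin, and Arc (0.296), an immediate early gene. They were followed by Mgp (0.54), Adipoq (0.609) and Plin1 (0.609), of which Adipoq and Plin1 are adipocyte markers. Clu was at 3.49 and 3.12 TPM in Dicer1 KO, against 87.3 and 145 TPM in the batch 1 EV, and at 609, 604 and 580 TPM in Drosha KO, against 720, 719 and 729 TPM in the batch 2 EV. Its batch 2 levels were thus the higher ones, unlike those of Hspa1b. Arc was at 16.8 and 15.8 TPM in Dicer1 KO, against 230 and 579 TPM in the batch 1 EV, and between 2.29 and 3.41 TPM in batch 2. Adipoq and Plin1 were lower in replicate 2 than in replicate 1 of the batch 1 EV (36.4 and 61.6 TPM for Adipoq), the reverse of the HSP70 genes.

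Across the 4 groups, 6 of the 10 genes ran from the batch 1 EV through Dicer1 KO and Drosha KO to the batch 2 EV in descending order of means. These were Hsph1, Dnajb1, Bag3, Hsp90aa1, Hspb1 and Hspb8. The share of all genes with this order was not computed, and the batch 2 means of Hspb1 were 0.0375 TPM in Drosha KO and 0.0358 TPM in the batch 2 EV. The ranges of the batch 1 EV and Dicer1 KO overlapped for Hsp90aa1 and Hspb8, and those of Drosha KO and the batch 2 EV overlapped for Hspb1. Hspa1a and Hspa1b had the same order at the top and the batch 2 EV above Drosha KO at the bottom, where the ranges of Hspa1a overlapped. Hspa8 was highest in Dicer1 KO, and its 2 batch 2 groups overlapped. Cryab ran from the batch 1 EV through Drosha KO and the batch 2 EV to Dicer1 KO, with each neighbour apart.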

How the data were processed

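mRNA of OP9 cells was sequenced in 10 libraries. The authors deposited TPM per gene in 1 table per knockout, from kallisto 0.48.0 per the submitters' processing notes; the sources used here give no index, annotation or genome build, nor which extraction kit and sequencer each library had. kallisto shares reads among like transcripts by estimation, which touches Hspa1a and Hspa1b. Each table held 55357 genes. Values under 1 symbol were summed, genes without one were kept by ID in the Drosha table and left out of the Dicer1 table (4.25% to 6.22% of TPM), and 3 columns of group means and their ratio were not used. Libraries had between 11893 and 12921 genes at 1 TPM or more.

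Genes entered at a TPM of at least 1 in 3 of 6 (Drosha) or 2 of 4 (Dicer1) libraries. log2(TPM + 1) of the deposited values was fitted with limma 3.58.1 in R 4.3.3 with a mean trend, two-sided, with Benjamini-Hochberg adjustment over all genes; the sum of Hspa1a and Hspa1b replaced the 2 genes in a fit of its own. The code was tested on simulated data. The median of all genes was 0.13 in Drosha KO and 0.15 in Dicer1 KO (log2), which median-ratio scaling moved to 0.00 and 0.01. Alternatives were pseudocounts of 0.1 and 0.5, quantile normalization, median-ratio scaling, no filter, 5 TPM as the minimum, no mean trend, the replicate number as a block, genes with a symbol in both tables, and leaving out each library. The members, lists and naming rule (all members, up to 4 called genes per list and knockout with the largest changes, and the 5 genes most like Hspa1a and Hspa1b) were chosen with earlier results of these data known. Hsf1, Hspa1l, Hsp90ab1, and genes named for their replicate ratio, were named outside that rule after their values were seen. Protein sequences were not analysed here.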

Additional observations from a re-analysis of the deposited data

Results flagged for a closer look

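The change in Drosha KO differed from the change in Dicer1 KO for the sum of Hspa1a and Hspa1b and for 6 single genes, in 1 limma fit over all 10 libraries. The difference, Drosha KO change minus Dicer1 KO change on the log2 scale, was 5.01 for the sum, 4.88 for Hspa1b, 4.44 for Cryab, 2.79 for Dnajb1, 0.93 for Hsph1, 0.81 for Hsp90aa1 and 0.66 for Bag3. Knockout and batch coincide, so a difference between knockouts and a difference between the batches' controls cannot be told apart.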

How the results depend on the processing

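Of the results for single members, 363 kept their direction and their side of the threshold, 30 lost the call, 12 gained it and 8 changed sign, of which 1 also lost the call and 2 gained it. These tallies, and the calls and adjusted p given next, include fits with 1 library left in a batch 1 group. In the Dicer1 comparison such a fit takes its spread from the other group alone, so its calls are not read as results. With each library left out in turn, the members called in the Dicer1 comparison numbered between 0 and 9, and the summed Hspa1a and Hspa1b changed by between -5.85 and -4.46, with adjusted p between 0.00455 and 0.0867. Without either Dicer1 KO library limma called no gene (2925 and 3129 at an unadjusted p under 0.05), so these fits say nothing about stability. In the Drosha comparison the sum was called lower after median-ratio scaling (-0.28) and quantile normalization (-0.31), Dnajb1 changed sign in both (-0.0045 and -0.038), Hspa8 with median-ratio scaling (-0.12) and Bag3 with quantile normalization (-0.016). Hspa8 ranged from -1.82e-05 to 0.054 as libraries were left out. In the Dicer1 comparison Hspb8 was -0.14 and -0.069 after the 2 scalings and between -0.26 and 0.29 as libraries were left out. The cause was not tested. For the difference, 3 members were called higher with a spread of its own for each table, beside 11.9% of all genes. Without a filter, 1362 genes were called higher and 485 lower in Dicer1 KO, against 2627 and 1175 with it. Same-numbered libraries did not deviate together (correlations of -0.0194, 0.0187 and -0.00744 in batch 2 and -0.0921 in batch 1). With the replicate number as a block, 5 members were called higher in Drosha KO and 5 lower in Dicer1 KO, beside 33.72% and 7.999% of all genes. In the difference, 6 members were then called higher, beside 15.63% of all genes. Depth is unknown, and 2 libraries per group in batch 1 limit the precision there.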
